A study of Mus musculus and Homo sapiens
Mus musculus with 12 samples.

Results

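A total of 341 nuclei of the mouse brain were selected by a small set of genes named for Npsr1 and Npr3, from 11198 nuclei in 7 libraries. A nucleus entered when the summed unique fragment identifiers (UFIs, the tags that count captured RNA fragments) of Npsr1, Npr3, L3mbtl4, Gm19410 and Gm27247 reached 8 per 10000 of its UFIs. It also needed at least 1 UFI of Slc17a7, the vesicular glutamate transporter of cortical excitatory neurons, with Hs3st4 under 8 and Lrp2 under 5 per 10000. The group made up 3.05% of all nuclei (95% exact binomial interval 2.73 to 3.38) and 6.37% of the 5352 nuclei that met the Slc17a7 and Lrp2 conditions. Since these 5 genes chose the nuclei, their levels below are a description, and the same holds for every contrast between the selected nuclei and the rest.

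The brains came from wild-type C57BL/6J male mice of 6 to 8 weeks, and nuclei were profiled by snHH-seq, a droplet method for total RNA with random reverse transcription primers. Tissue was frozen or fresh, and the primers carried a well-specific preindex or none. By their titles 2 libraries were frozen without preindex, 2 frozen with preindex, 2 fresh without preindex and 1 fresh with preindex. The libraries held 8605214 to 42439731 UFIs, and nothing in the labels says which came from separate animals, so p-values measure only the spread between these libraries, which may be technical.

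The labels conflict on the primer. A second field names the opposite primer for 4 of the 7 libraries, both frozen libraries titled with preindex and both fresh libraries titled without, and under that field primer and storage cannot be told apart. The titles were used here, and the barcodes of the files go with the titles, being 40 bases long in libraries titled with preindex and 30 bases long in the others. Of the 7 libraries, 9 pairs had barcodes of the same length and shared 32 barcodes in all, at most 10 in a pair, and 0 selected nuclei shared a barcode with a selected nucleus of another library. The median depth of the selected nuclei was 16450 UFIs and 3852 genes, and ranged over libraries from 11879 UFIs (frozen with preindex, replicate 1) to 32482 UFIs (fresh without preindex, replicate 2).

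Excitatory neurons of the deep cortical layers send axons to subcortical targets or to other cortical areas, and transcription factors such as Fezf2 and Bcl11b are known for setting these fates apart. Neuropeptide S receptor 1 (Npsr1) is a G protein-coupled receptor known for effects on arousal and anxiety. Natriuretic peptide receptor 3 (Npr3) is known as the clearance receptor that binds natriuretic peptides and takes them into the cell.

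The promoters of the namesake receptors and of Bcl11b, a factor of subcortically projecting neurons, are shown because the results turn on these genes. They are RefSeq promoters of GRCm38.p6 on the gene's strand, from 250 bases before to 50 after the start. Npsr1 lies at chr9:24097768-24098067 on the plus strand, Npr3 at chr15:11907322-11907621 on the minus strand and Bcl11b at chr12:108003365-108003664 on the minus strand. Capitals mark the letters TGACG, the core of a cAMP response element, in Npsr1 and Npr3 (written CGTCA where it lies on the opposite strand), and TATAAA, the TATA box letters, written TTTATA on the opposite strand in Bcl11b.
Npsr1: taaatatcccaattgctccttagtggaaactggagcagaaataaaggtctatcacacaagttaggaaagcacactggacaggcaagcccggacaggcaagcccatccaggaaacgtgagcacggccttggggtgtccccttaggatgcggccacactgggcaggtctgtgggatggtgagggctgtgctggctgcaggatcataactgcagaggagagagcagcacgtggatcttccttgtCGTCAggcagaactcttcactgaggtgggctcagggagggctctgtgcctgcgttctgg
Npr3: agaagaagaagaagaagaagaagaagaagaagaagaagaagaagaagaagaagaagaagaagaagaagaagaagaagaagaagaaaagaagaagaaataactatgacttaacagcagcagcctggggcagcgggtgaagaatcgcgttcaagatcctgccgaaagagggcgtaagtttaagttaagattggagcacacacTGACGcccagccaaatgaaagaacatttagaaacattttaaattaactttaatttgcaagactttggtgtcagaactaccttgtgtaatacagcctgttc
Bcl11b: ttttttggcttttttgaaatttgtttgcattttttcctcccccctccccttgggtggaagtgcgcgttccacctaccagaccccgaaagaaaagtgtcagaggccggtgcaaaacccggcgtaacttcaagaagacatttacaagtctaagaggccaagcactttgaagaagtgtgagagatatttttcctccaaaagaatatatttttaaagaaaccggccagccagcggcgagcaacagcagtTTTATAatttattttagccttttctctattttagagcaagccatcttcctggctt
Both strands were searched for the TATA box (TATAAA), the GC box (GGGCGG), an E-box (CAGCTG, the same on both strands), the octamer (ATGCAAAT) and the cAMP response core (TGACG). Each printed promoter held 1 match, so no matches overlap. TGACG stood 9 bases before the start in Npsr1 and 50 bases before it in Npr3, and 20.8% of 32851 promoters of the same length hold it. TATAAA stood 5 bases before the start in Bcl11b, and 13.6% of promoters hold it. A match is a description of letters and not a binding site. A promoter was found for 8 of 13 genes looked for, and TGACG was in 3 of these 8, the third being Bcl6.

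Most of the selection rested on Gm27247, a long noncoding RNA, and not on either receptor. Gm27247 had a UFI in 298 of 341 selected nuclei (87.4%), carried the most UFIs of the 5 genes in 256 (75.1%) and alone reached the minimum in 193. Npsr1 had a UFI in 87 nuclei (25.5%) and led in 49, and Npr3 had a UFI in 192 (56.3%) and led in 3. L3mbtl4, a histone-binding protein, had a UFI in 154 and led in 29, and Gm19410 had a UFI in 191 and led in 4. In 100 selected nuclei neither Npsr1 nor Npr3 had a UFI, and in 38 both had. All 5 genes had a UFI in 15 nuclei and a single one in 50, with median depths of 29527 and 11740 UFIs. Without Gm27247 in the sum, 104 nuclei passed, all of them among the 341.

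Levels of the rule genes were summed over the selected nuclei of each library as counts per 1000000 UFIs (CPM). Npsr1 ranged from 93.3 to 502 CPM with a median of 274 (271 ± 140, SD, n = 7), against 13.7 in the other Slc17a7 nuclei. It was lowest in frozen without preindex replicate 2 and highest in frozen with preindex replicate 1, where it led 10 of 33 nuclei. Gm27247 ranged from 581 to 972 with a median of 896, and the library lowest in Gm27247 was the one highest in Npsr1. Npr3 ranged from 57.5 to 131 (86.6 ± 23.8), L3mbtl4 from 114 to 206 (162 ± 33.9) and Gm19410 from 104 to 158 (134 ± 18.3). The label that names the group for Npsr1 and Npr3 therefore describes a minority of its nuclei for Npsr1, and the group is called the selected nuclei below.

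**Figure D1:**
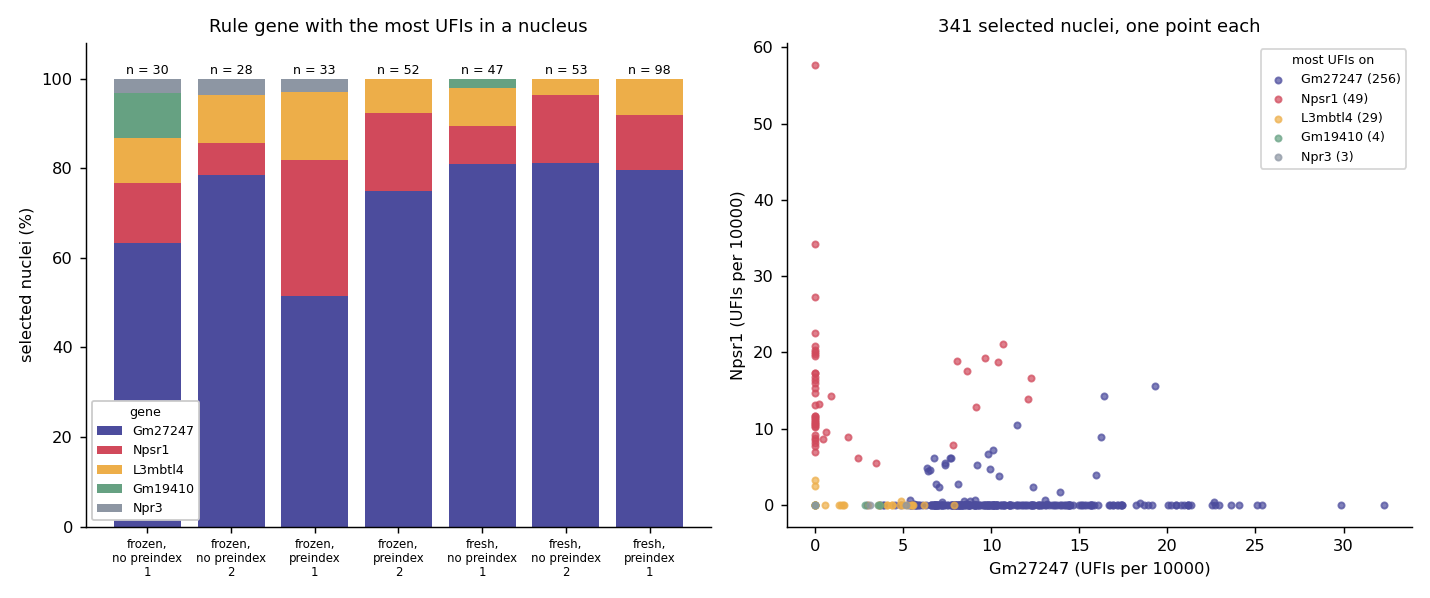
Left, percent of selected nuclei of each library by the rule gene with the most UFIs, with the number of nuclei above each bar. Right, Npsr1 against Gm27247 in UFIs per 10000 for each of the 341 nuclei, coloured by that gene, with most of the 49 nuclei led by Npsr1 lying at or near 0 for Gm27247.

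Gm27247 is listed by RefSeq as Gm2164, a long noncoding RNA at chr4:124522925-124657487 (GRCm38.p6), and in the GRCm38 gene annotation at chr4:124528924-124657169 on the minus strand. By the latter its 5′ end shares 363 bases with Pou3f1, a POU factor of layer 5 neurons on the plus strand at chr4:124656807-124660655. Per kilobase of gene length, Gm27247 stood at 6.45 ± 0.982 CPM in the selected nuclei (SD, n = 7) and 0.498 in the other Slc17a7 nuclei. Pou3f1 stood at 2.51 ± 1.11 and 0.293 on the same scale. The pair were both higher in the selected nuclei of every library. The protocol keeps strand, but how the counting used it is not given in the sources used here, so reads from the shared bases could be assigned to either gene.

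The group has no sharp edge at its minimum. The summed rule genes of the selected nuclei ran from 8.06 to 58.4 per 10000 with a median of 13.8. The 67 nuclei just inside, from 8 to 10 per 10000, had Bcl11b at 316 and Ldb2 at 594 CPM. The 85 nuclei just outside, from 6 to 8, had Bcl11b at 348 and Ldb2 at 681, so the values on both sides of the minimum were close. In all, 870 nuclei reached the minimum on the 5 genes. Of those not selected, 413 had no UFI of Slc17a7, 2 of them with Lrp2 over its limit as well, and the other 116 exceeded the limit on Hs3st4. The 411 without Slc17a7 and under the Lrp2 limit had a median depth of 10568 UFIs, held Hs3st4 at 811 CPM, and had Rgs9 at 579, Drd2 at 361 and Penk at 131 CPM, genes known for striatal projection neurons, against 83.9, 32.9 and 9.34 in the selected nuclei.

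Several layer 5 extratelencephalic markers were higher in the selected nuclei than in the other Slc17a7 nuclei. Most markers of layer 6 corticothalamic neurons, layer 4 and the upper layers were lower in this comparison. Ratios are log2 ratios of CPM (+ 5) between selected and other Slc17a7 nuclei, averaged over 7 libraries. Over 5810 genes at 20 CPM or more in either set, 480 (8.26%) were higher in 7 of 7 libraries, 722 (12.4%) were lower in 7 of 7, and the median ratio was -0.04. A gene can reach this level only in the set where it is high, so counts and medians of lists are descriptions. Of the 11 genes listed for layer 5 extratelencephalic neurons, which project below the cortex, 6 were higher in all 7 libraries whatever their level. At 20 CPM, the level of the shares above, 3 of 4 were. The 4 at 20 CPM had a median ratio of 1.13, with Bcl6 and Crym at that level in the selected nuclei only (12.2 and 15.9 CPM in the others). Bcl11b stood at 290 to 438 CPM with a median of 381, against 151 in the other nuclei (ratio 1.23 ± 0.19). Bcl6, a repressor, stood at 28.8 to 59.9 with a median of 40.9 (ratio 1.46 ± 0.23), and Crym, a thyroid hormone binding protein, at 26.0 to 50.5 (ratio 1.02 ± 0.31). Every one of the 7 libraries was above its own other nuclei for these 3 genes.

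Below 20 CPM, Pou3f1 (9.66 ± 4.26), Fezf2 (12.3 ± 3.19) and Fam84b (6.41) were also higher in all 7 libraries, with ratios of 1.21, 0.95 and 0.83. Pou3f1 shares bases with the rule gene Gm27247, so its count may not be independent of the rule. The other 5 genes of the list were not higher in every library. Vat1l stood at 81.9 CPM, higher in 6 of 7 libraries. Chrna6 had UFIs in 1 library only, Hpgd stood at 1.39 CPM and Slco2a1 at 7.71 CPM, higher in 3 of 7 libraries. The neurofilament Nefh stood at 14.01 CPM, higher in 5 of 7. Of the markers given with the group, Ldb2, a LIM domain binding protein outside the rule, had 733 to 1149 CPM (ratio 1.30 ± 0.26), and the neurofilament Nefm 15.5 to 45.9 (ratio 0.49 ± 0.42), both higher in 7 of 7.

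Markers of near-projecting neurons were split. Stac, an adaptor of calcium channels, stood at 55.2 to 146 CPM (ratio 1.79 ± 0.56) and was higher in every library, and Tshz2, a zinc finger factor, ranged from 102 to 1007 (ratio 0.78 ± 1.22) and was higher in 6 of 7. Trhr, the thyrotropin-releasing hormone receptor (1.43 CPM), and Slc17a8 (0.279) were lower in all 7. For layer 6 corticothalamic neurons 4 of 6 genes were lower in all libraries (median -0.92), among them Foxp2 (-1.24) and Tle4 (-1.15), but Hs3st4, also a layer 6 gene, was itself capped by the rule. For layer 4, 2 of 3 genes were lower (median -1.32), and for layers 2 and 3, 5 of 7 (median -1.14), with Cux2 at -1.72 ± 0.35. Of the layer 5 and 6 intratelencephalic list, 1 of 2 genes was higher, Etv1, an ETS factor (168 ± 64.1 CPM, ratio 1.19), and 1 was lower. The 1 dentate granule gene at this level (-2.05) and 3 of 4 thalamic genes (median -2.34) were lower in every library. Rorb, the layer 4 nuclear receptor, was lower in 6 of 7 libraries and spread from 22.02 to 210 CPM.

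Of the 5 hippocampal and subicular genes, 2 reached 20 CPM, both in the selected nuclei only, and 1 of these was higher in every library. Fibcd1, known in pyramidal cells of hippocampal area CA1, stood at 15.97 to 44.3 CPM (ratio 1.48 ± 0.59, higher in 7 of 7), and Fn1, fibronectin, at 4.39 to 78.6 (ratio 0.81 ± 1.19, higher in 6 of 7). In 50 selected nuclei these genes together had at least 3 UFIs, and without these nuclei the layer 5 extratelencephalic median was 1.04 against 1.13. With markers of several projection classes present and defining markers such as Chrna6 near 0, no cell type name was given to the group.

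**Figure D2:**
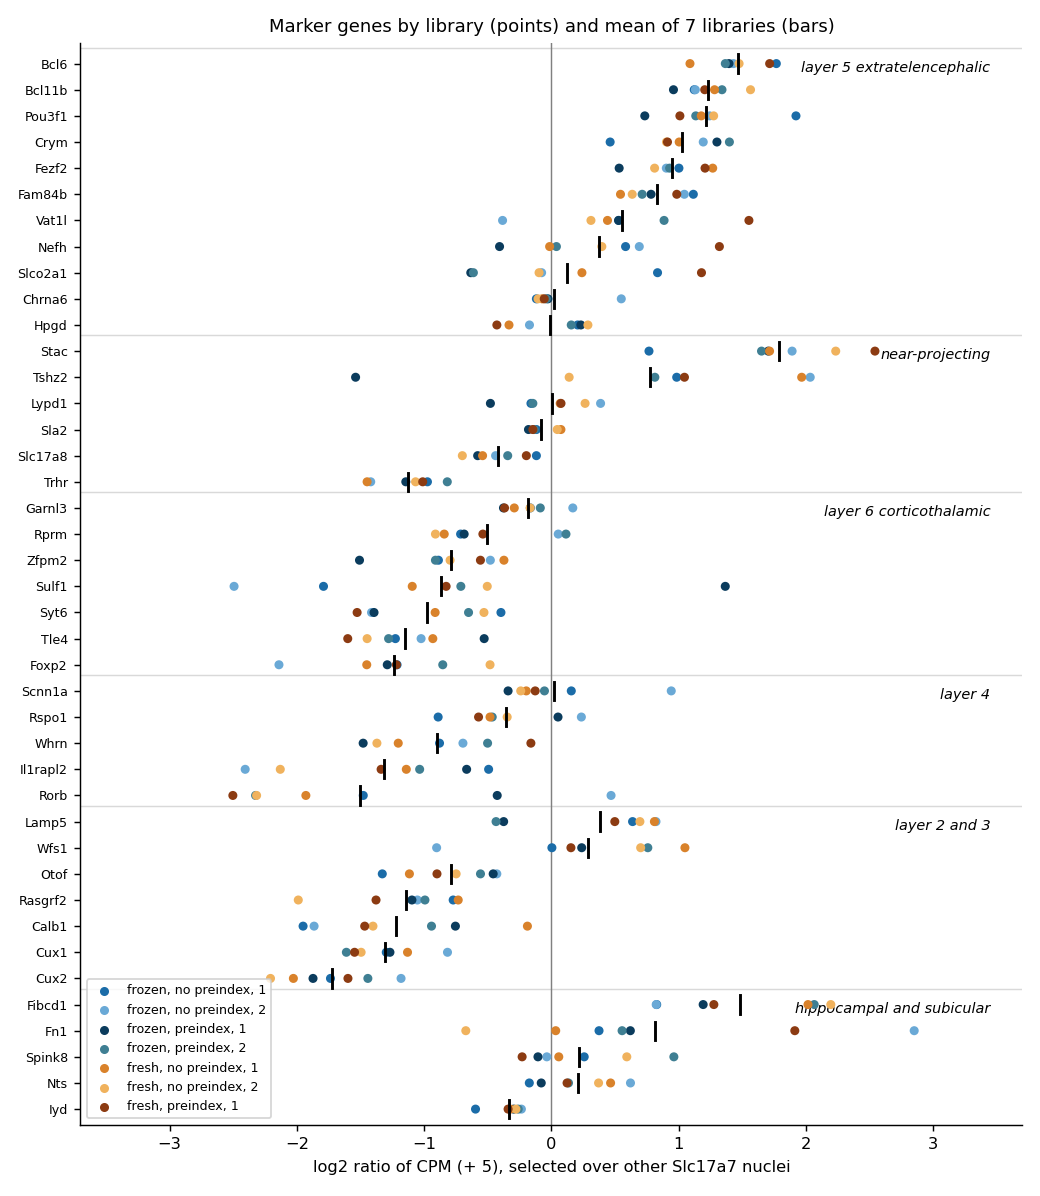
Log2 ratio of CPM (+ 5) in selected over other Slc17a7 nuclei for marker genes, by library (points) and as the mean of 7 libraries (bars). All 7 points lie right of 0 for Bcl6, Bcl11b, Pou3f1, Crym, Fezf2, Fam84b, Stac and Fibcd1, and left of 0 for Cux1, Cux2, Calb1, Tle4 and Foxp2.

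The genes outside the rule that led the selected nuclei were mostly channel, signalling and adhesion genes, found without a test as a description of what the rule selects. Gm2115 stood at 56.1 to 110 CPM with a median of 75.9, a ratio of 2.16 ± 0.45 over the other nuclei (14.02 CPM). Gpr161, an orphan receptor of primary cilia, stood at 48.8 to 83.5 (ratio 2.06 ± 0.22), and Parm1 at 176 to 257 (ratio 1.97 ± 0.18). Each of these libraries was above its other nuclei, and the lowest selected library was above the highest other library for all 3. Tcerg1l (151 ± 30.9, ratio 1.85), Pex5l (2416 ± 181, ratio 1.55), Tox (769 ± 136, ratio 1.54) and the cation channel Trpc4 (302 ± 81.9, ratio 1.53) followed. Others among the first 20 were Stac, 4921539H07Rik, 6430573F11Rik, Coro6, Iqgap2, Tmem200a, Gm10754, Kcnn2, Chst8, Arhgap12, Serpine2 and Ldb2, with ratios from 1.30 to 1.79. Among the 10 lowest, Trpc6 (-2.84), the zinc finger factor Glis3 (-2.81), Tcf7l2, known in thalamic neurons (-2.46), the guidance gene Sema5a (-2.39), Phactr2 (-1.95) and Cpne4 (-1.92) were lower in every library.

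Ion channel genes had members in both directions. Kcnn2, a calcium-activated potassium channel, ran from 509 to 624 CPM with a median of 579 (ratio 1.39 ± 0.16). It was above the other nuclei in every library. Of 20 genes of potassium and related channels at 20 CPM, 6 were higher in all libraries, including Kcng1 (0.88), Kcnh7 (0.55), Kcnq5 (0.39) and Kcnd2 (0.28). Another 7 were lower, among them Kcnh5 (-1.34), Kcnc1 (-1.31) and Kcnc2 (-1.15), the last pair being fast-spiking channels. Of 17 sodium and calcium channel genes, 4 were higher, Cacna1h (0.93 ± 0.32, a low-threshold calcium channel), Cacna2d3 (0.70), Scn4b (0.59) and Scn8a (0.14), and 7 were lower, led by Cacna1c (-0.68). The list medians were 0.01 and -0.01, near that of all genes.

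Glutamate receptors were also divided by subunit. Of 18 genes, 7 were higher in all libraries and 5 lower, with a median of 0.13 that turned to -0.0010 with Gm27247 left out of the rule. The AMPA receptor subunits Gria1 (0.70 ± 0.31), Gria3 (0.52) and Gria2 (0.38) were higher and Gria4 (-0.96 ± 0.40) was lower. Grik2 (0.57), Grm5 (0.53), Grin2a (0.42) and Grin2b (0.15) were higher, and Grm3 (-0.90), Grik4 (-0.68) and Grm7 (-0.17) lower.

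Transcription factors, guidance and adhesion genes likewise had members on both sides. Of 17 transcription factors, 5 were higher in all libraries (Bcl6, Ldb2, Bcl11b, Nfib at 0.38 and Foxp1 at 0.32) and 7 were lower. The median of this list was 0.27 with the rule as given, fell by 0.44 below 0 with Gm27247 left out of the rule, and was 0.02 without the nuclei with Fibcd1 and Fn1, both variants having been added after the data were seen. Of 24 axon guidance genes, 7 were higher, with Sema3e (1.16 ± 0.28), Epha6 (0.96), the semaphorin receptor subunit Nrp1 (0.83) and Epha5 (0.54) leading, and 7 were lower, among them the netrin receptor Unc5d (-1.68) and Plxnd1 (-1.44), the receptor of Sema3e. Of 21 synaptic adhesion genes, 4 were higher (Cntnap2 0.63, Cdh13 0.44, Cntn6 0.42, Nlgn1 0.21) and 5 lower, led by Cdh9 (-1.23) and Cdh18 (-1.09).

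The remaining lists are given beside the 8.26% of all genes that were higher and the 12.4% that were lower in every library. Of 14 neuromodulator receptors, Htr1f, a serotonin receptor (242 CPM, ratio 0.93 ± 0.35), and the muscarinic receptor Chrm3 (0.31) were higher in all libraries and Chrm2 (-0.91) was lower. Of 15 cyclic nucleotide genes, Pde10a (0.31) was higher and 4 were lower, among them the cGMP-dependent kinase Prkg1 (-0.92) and Pde7b (-1.33). Of 8 cytoskeletal genes, Nefm and Map2 (0.24) were higher, and of 4 nuclear and small RNAs, Meg3 (0.37) and Malat1 (0.07). Of 2 immediate early genes at this level, Nr4a1 (0.49) was higher.

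The ligands of the namesake receptors were at or near 0. Npr2, the receptor for C-type natriuretic peptide, stood at 23.1 CPM (ratio 0.06 ± 0.40, higher in 3 of 7 libraries). Npr1 stood at 0.566 CPM and Nppc at 0.304, and the peptide genes Nps and Nppa had 0 of 7175298 summed UFIs of the selected nuclei, which allows up to 0.418 CPM (3 UFIs).

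**Figure D3:**
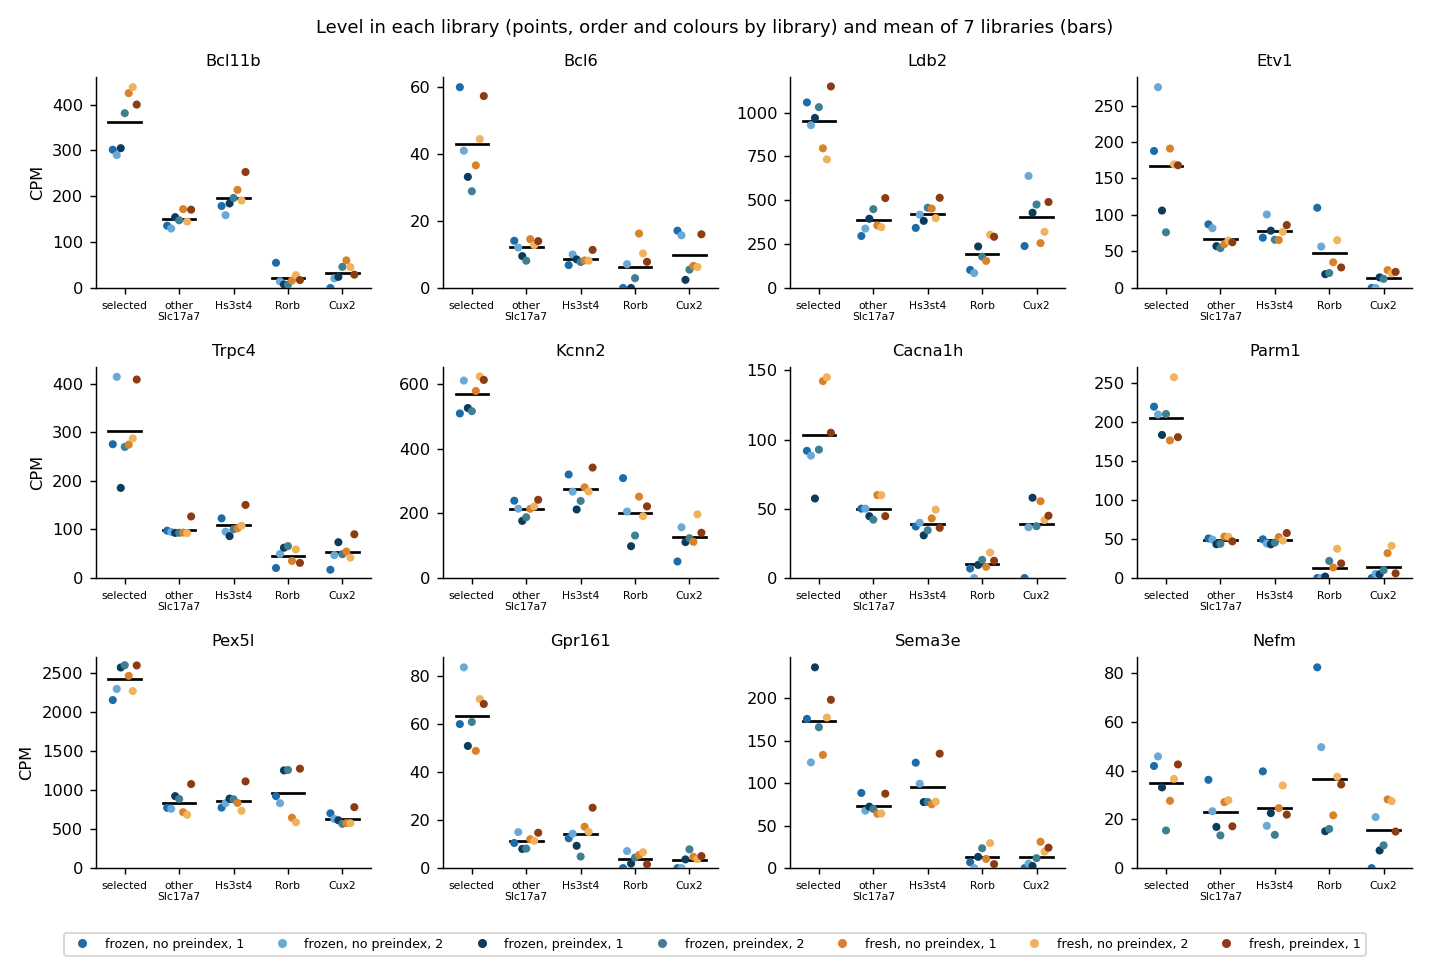
CPM of 12 genes in the selected nuclei, the other Slc17a7 nuclei and nuclei gated on Hs3st4, Rorb or Cux2, by library (points) with the mean of 7 libraries (bars). Bcl11b, Kcnn2, Parm1 and Gpr161 are highest in the selected nuclei in every library shown, and Nefm overlaps between sets.

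Neighbouring gates of Slc17a7 nuclei served for comparison, namely 1792 nuclei with Hs3st4, 214 with Rorb and 315 with Cux2, each at 8 per 10000 or more. The Rorb and Cux2 sets left out the selected nuclei and had Hs3st4 under 8 per 10000, and the Cux2 set also had Rorb under 8. Against the Hs3st4 nuclei, Bcl11b was still higher in the selected nuclei of all 7 libraries (0.86 ± 0.18), as were Kcnn2 (1.04), Parm1 (1.97), Pex5l (1.49) and Bcl6 (1.78). Foxp2 (-2.04), Tle4 (-2.01) and Cdh18 (-1.85) were lower in all 7. Htr1f, higher against all other nuclei, was higher in only 4 of 7 libraries against the Hs3st4 nuclei (0.23 ± 0.47). The median of layers 2 and 3 was -0.29 there, with 1 of 5 genes higher and 2 lower in all libraries. For layer 4 the median against the Hs3st4 nuclei was -1.57, with 3 of 3 genes lower in all libraries. Without thinning, Foxp2 had a UFI in 48.5% of the Hs3st4 nuclei, Cux2 in 37.2% and Rorb in 36.7%. This gate is therefore not taken as a single layer. Against the Rorb and Cux2 nuclei the mean ratios of Bcl11b were 4.02 and 3.60 and those of Sema3e 3.55 and 3.55. The layer 6 corticothalamic median turned to 0.30 and 0.56, each with 1 of 5 genes higher and 0 lower in all libraries. Hs3st4 was capped in these sets as in the selected nuclei. For layer 4 the medians against the Rorb and Cux2 nuclei were -1.99 over 3 genes and 0.67 over 2. Rorb is in this list and in both gates, so the gates partly set these values. These gates held as few as 10 and 5 nuclei in a library, so single libraries are coarse.

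Within the group, nuclei led by Npsr1 and nuclei led by Gm27247 carried different genes beside the rule genes. The 49 Npsr1-led nuclei came from all 7 libraries, 2 to 12 in each, and the 256 Gm27247-led nuclei 17 to 78 in each. Summed over nuclei, Grik3, a kainate receptor, stood at 903 CPM in the Npsr1-led and 221 in the Gm27247-led nuclei, and in the Npsr1-led nuclei ranged over libraries from 467 to 1547. Gria4 stood at 936 and 287, Cdh9 at 163 and 32.9, Cntnap4 at 227 and 48.0, Nrp2 at 178 and 25.7, and Chrm2 at 127 and 24.4 CPM, each higher in the Npsr1-led nuclei of 7 of 7 libraries. Several of these, Gria4, Cdh9, Nrp2 and Chrm2, were among the genes that were lower in the selected nuclei as a whole. Most nuclei of that whole were Gm27247-led, so the 2 descriptions are not independent.

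Several of the leading genes stood higher in the Gm27247-led nuclei. These nuclei were 256 of the 341 from which the leading genes were picked, so this was largely set by the choice of genes. Gm2115 stood at 106 CPM in them and 3.07 in the Npsr1-led nuclei, Gpr161 at 78.9 and 16.4, Trpc4 at 359 and 96.4, Iqgap2 at 530 and 106 and Epha6 at 2298 and 518. Bcl11b stood at 421 and 280, and Fn1 at 26.4 and 0. All of these were lower in the Npsr1-led nuclei of 7 of 7 libraries. With as few as 2 Npsr1-led nuclei in a library, a gene of low level can be at 0 there, which counts as lower. The share of all genes higher or lower in 7 of 7 libraries was not counted between these subsets, so these counts have no background beside them. Ldb2 differed little (921 and 942, higher in 4 of 7 libraries). Adarb2, a gene also used as a marker of GABA neurons, stood at 608 CPM in the Npsr1-led and 83.0 in the Gm27247-led nuclei. In the former it ranged over libraries from 0 to 3036. The GABA neuron genes Gad1 (15.4 and 23.4 CPM) and Gad2 (18.5 and 26.2) were instead lower in the Npsr1-led sum. By library, Gad1 was lower in 6 of 7 and Gad2 in 3 of 7. These subsets were formed after values were seen and were not tested.

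Signals of other cell types were present in the selected nuclei. Nuclei gated on oligodendrocyte genes (160 nuclei, median depth 10046 UFIs), which should lack the rule genes and Bcl11b, were used to gauge free RNA after thinning to 5000 UFIs, which kept 339 of 341 selected and 155 of 160 gated nuclei. Npsr1 had a UFI in 20.6% of selected and 2.58% of gated nuclei, Npr3 in 26.8% and 0%, and Bcl11b in 69.3% and 14.2%. Gm27247, on which most of the selection rested, had a UFI in 84.4% and 11.6%. L3mbtl4 was counted in 32.2% and 1.94%, and Gm19410 in 34.8% and 2.58%. Bcl11b was also in 49.5% of Hs3st4 and of Lrp2 nuclei, and Cux2 in 72.3% of the gated and 15.9% of the selected nuclei, so the gated nuclei are no background for every projection neuron gene. The corresponding shares before thinning were 25.5% and 4.38% for Npsr1, 87.4% and 16.9% for Gm27247, and 83.6% and 20% for Bcl11b. Parm1 had a UFI in 44.2% of selected and 43.2% of gated nuclei, and in 15.2% of Hs3st4, 6.13% of Rorb, 6.39% of Cux2 and 6.85% of Lrp2 nuclei. The astrocyte list summed to 314 to 674 CPM in the selected nuclei, with Slc1a2 most abundant, and to 920 to 1260 in the other nuclei. Oligodendrocyte genes summed to 81.8 to 296 CPM (Mbp most abundant), with a mean of 193 ± 88.3 against 199 ± 45.2 in the other nuclei (SD, n = 7). At 5000 UFIs, Mbp had a UFI in 36.0% of the selected nuclei, against 22.4% of Hs3st4, 20.3% of Rorb and 26.8% of Cux2 nuclei. Oligodendrocyte precursor genes summed to 4.40 to 98.3 CPM (Vcan most abundant), 45.1 ± 36.0 against 21.0 ± 4.92. GABA neuron genes summed to 75.6 to 467 CPM (Adarb2 most abundant), 251 ± 134 against 631 ± 190 (n = 7). The 6 microglia genes summed to 2.44 to 11.98 CPM (Dock2 most abundant), 7.07 ± 3.30 against 18.7 ± 7.70, and of these only Tmem119 was at 0 in the selected nuclei. The part of these RNAs in the other results was not tested. By thresholds of 3 GABA or 10 oligodendrocyte UFIs, 47 of the 341 were possible doublets, and they were kept.

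The share of selected nuclei overlapped between frozen and fresh libraries. The shares were 4.29%, 3.50%, 1.43% and 2.60% in the 4 frozen libraries and 4.70%, 4.08% and 3.16% in the 3 fresh ones. The mean was 2.96 ± 1.23% (SD, n = 4) against 3.98 ± 0.774% (n = 3), and the difference of -1.02 percentage points did not pass a two-sided exact permutation test over 35 splits (p = 0.286, 0.286 adjusted over 4 library tests). With Gm27247 left out of the rule, an alternative added after the data were seen, the difference was 0.107 points (exact permutation p = 0.514), and without frozen with preindex replicate 1 it was -0.517 points.

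Libraries titled with preindex had a lower share of selected nuclei than those without, by a difference that did not pass 0.05 after adjustment. The 3 shares with preindex, 1.43%, 2.60% and 3.16%, lay below the 4 without, 3.50% to 4.70%. The means were 2.40 ± 0.881% (n = 3) and 4.14 ± 0.499% (n = 4), a difference of -1.74 points (exact permutation p = 0.0286, the smallest this design allows, 0.0571 adjusted over 4 tests). It was -1.87 points within frozen and -1.23 within fresh libraries. As a share of Slc17a7 nuclei the difference was -1.09 points (exact permutation p = 0.314), with 4.00%, 6.29% and 7.19% against 5.97% to 7.75% and overlapping groups. With Gm27247 left out of the rule it was -0.134 points (exact permutation p = 0.314). The 2 frozen libraries with preindex held 246 and 193 nuclei rich in Lrp2, the fresh library with preindex held 1 and the 4 libraries without preindex held 0. The part of these nuclei in the result was not tested. Of Slc17a7 nuclei, the fresh library with preindex had 7.19%, between the 5.97% and 7.38% of the fresh libraries without.

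**Figure D4:**
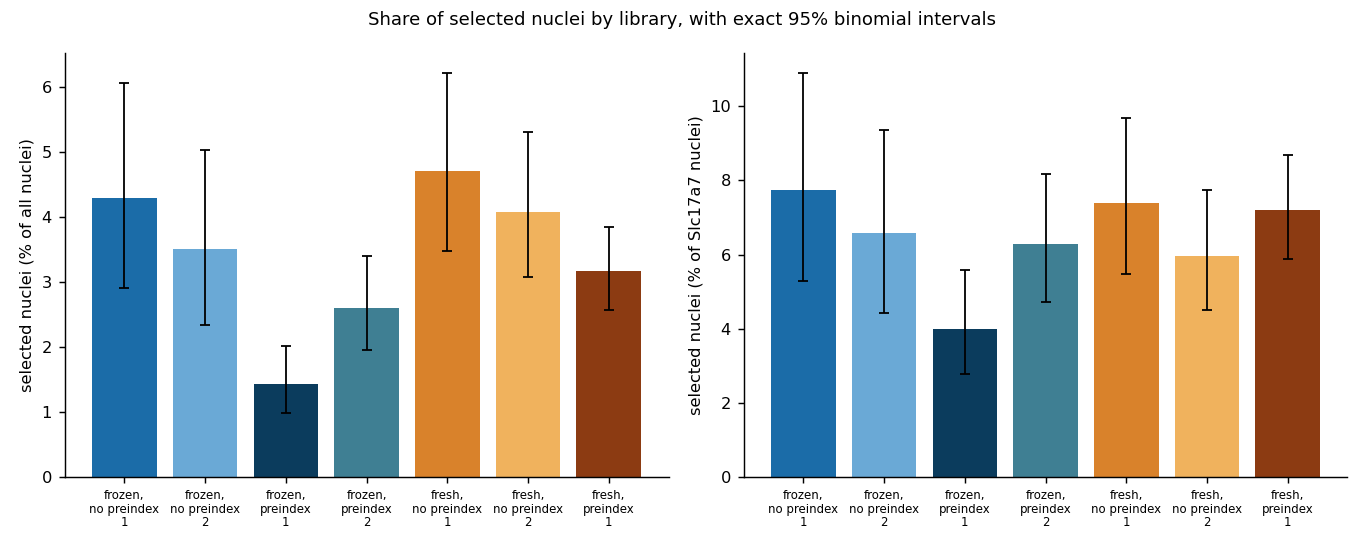
Selected nuclei as percent of all nuclei (left) and of Slc17a7 nuclei (right) in each library, with exact 95% binomial intervals that cover counting error only. Of all nuclei the libraries with preindex lie at 1.43 to 3.16% and those without at 3.50 to 4.70%, and of Slc17a7 nuclei the groups overlap.

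Selected nuclei had fewer genes at equal depth in the libraries with preindex, again short of 0.05 after adjustment. Thinned to 3000 UFIs, the library medians were 1386, 1395 and 1430 genes with preindex and 1461, 1462, 1480 and 1499 without. The means of 1404 ± 23.5 (n = 3) and 1476 ± 17.9 (n = 4) differed by -71.7 genes (exact permutation p = 0.0286, 0.0571 adjusted over 4 tests), by -71.0 within frozen and -59.0 within fresh libraries. Frozen and fresh medians, 1426 ± 41.2 and 1470 ± 35.4, differed by -43.8 genes (exact permutation p = 0.2). Without thinning the primer difference was -1120 genes (exact permutation p = 0.143), at median depths of 11879 to 16402 UFIs with preindex and 13870 to 32482 without.

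Storage left no gene of the selected nuclei past the threshold. UFIs were summed per library over the selected nuclei and fitted with edgeR's quasi-likelihood test, with storage and primer as terms and Benjamini-Hochberg adjustment. Of 8983 genes tested, 0 (0.0%) passed an adjusted p of 0.05 for frozen against fresh, 430 had an unadjusted p under 0.05, and DESeq2 called 0 (180 unadjusted). Without fresh with preindex replicate 1, 11 genes passed, and other left-out libraries gave 0 to 4. In a sum over few nuclei, fewer nuclei of a kind and less RNA per nucleus cannot be told apart. The 3 smallest p in each direction belonged to Sntg2 (log2 fold change 1.42 ± 0.24, SE), C130073E24Rik (1.56) and Il16 (1.98) and to the small RNA genes Gm24407 (-1.47 ± 0.21), Gm24265 (-1.54) and Mir6236 (-1.31). In edgeR's quasi-likelihood fit their adjusted p ran from 0.0531 to 0.253. Without fresh without preindex replicate 1, Sntg2, Gm24407 and Gm24265 passed (adjusted p 0.0454 each). Of 15 alternatives, Gm24407 passed in 6, Gm24265 in 4, Sntg2 in 3, Mir6236 in 2 and the others in 1 each. Sntg2, a syntrophin, had 57.9, 62.2, 50.8 and 50.5 CPM in the frozen and 28.4, 16.1 and 22.02 in the fresh libraries, which do not overlap. In the other Slc17a7 nuclei it had 64.9 and 61.4 CPM on average. There Gm24265 (-1.31, edgeR adjusted p 2.66e-05) and Gm24407 (-0.88, adjusted p 0.0132) passed for storage, while Mir6236 (-0.36, adjusted p 0.618) and Sntg2 (0.14, adjusted p 0.727) did not.

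Between libraries with and without preindex, 37 of 8983 genes (0.412%) differed in the selected nuclei by the same test. Of these, 18 were higher with preindex (0.2%) and 19 lower (0.212%). The count without each library in turn ran from 5 (without frozen with preindex replicate 2) to 92 (without fresh with preindex replicate 1), and it was 12 without frozen without preindex replicate 1, 15 without its replicate 2 and 17 without fresh without preindex replicate 2. Without possible doublets it was 19. The genes named are those with the largest changes among 27 that had 20 CPM on average and no overlap between groups.

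Cd44, the hyaluronan receptor, had 11.05, 14.4 and 15.4 CPM with preindex and 128, 70.4, 104 and 93.3 without (log2 fold change -2.68 ± 0.26, adjusted p = 0.000648 by edgeR's quasi-likelihood test). Gm15564, an antisense noncoding RNA, had 48.6, 27.8 and 54.3 against 210, 139, 152 and 214 (-1.92 ± 0.23, adjusted p = 0.00227). Both groups were well apart for either gene. Prkag2, a subunit of AMP-activated kinase, had 672, 594 and 664 with preindex and 336, 270, 346 and 412 without (1.04 ± 0.13, adjusted p = 0.00358). Adamts2, a procollagen protease, had 172, 133 and 169 against 77.9, 39.3, 74.0 and 70.3 (1.40 ± 0.20, adjusted p = 0.0069). These 4 genes passed in all 15 alternatives.

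Other named genes were called less steadily. Nrp2, a semaphorin receptor, had 83.3 ± 14.5 CPM with and 34.9 ± 8.99 without preindex (1.24 ± 0.22, edgeR adjusted p 0.0219, up to 0.141 over alternatives), and Slc44a5 had 342 ± 80.6 and 172 ± 25.5 (0.98 ± 0.17, adjusted p 0.0207, up to 0.169). Both genes were also higher in the Npsr1-led than in the Gm27247-led nuclei (Slc44a5 at 486 and 189 CPM, higher in 6 of 7 libraries). The Npsr1-led nuclei were 10 of 33, 9 of 52 and 12 of 98 with preindex and 4 of 30, 2 of 28, 4 of 47 and 8 of 53 without, and the part of this mix in the primer result was not tested. Both calls were lost without frozen with preindex replicate 2 (adjusted p 0.0885 each) and without either frozen library without preindex (0.0712 to 0.0977), Nrp2 also without fresh without preindex replicate 2 (0.0626) and Slc44a5 without its replicate 1 (0.0562). Without possible doublets both calls were lost as well (edgeR adjusted p 0.141 for Nrp2 and 0.169 for Slc44a5). With other minima of the rule, Nrp2 was lost at 6 per 10000 (0.0819) and Slc44a5 at 10 (0.126). The small nuclear RNA gene Gm26002 had 68.5, 48.4 and 13.9 CPM with preindex and 2.00 to 6.35 without (2.80 ± 0.48, adjusted p 0.0207, up to 0.12). Since small nuclear RNAs have near-identical copies, its count is uncertain, and its call was lost without either frozen library without preindex or without frozen with preindex replicate 2. Zfp791 (-2.12 ± 0.40, 7.36 against 30.2 CPM) and Taco1 (-1.79 ± 0.34, 16.2 against 71.1) lost their calls in most single-library omissions, with adjusted p up to 0.159 and 0.131.

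Fat2, a cadherin of cerebellar granule neurons, had 0, 0 and 0.734 CPM with preindex and 85.9, 44.2, 9.75 and 20.02 without. By 1 UFI against 123, its rate was 78.1-fold higher without preindex (95% counting interval 13.8 to 3110), and its fitted change of -6.29 depends on the prior count (adjusted p = 0.00183 by edgeR's quasi-likelihood test). The call was lost without frozen with preindex replicate 2 (adjusted p = 0.0532). Cbln3, another granule cell gene, had 64 UFIs without and 0 with preindex, at least 13.5-fold higher against a floor of 3 UFIs over the group. The 3 genes of the cerebellar granule list summed to 140, 67.1, 18.7 and 36.1 CPM without and 0, 0 and 0.734 with preindex. In the other Slc17a7 nuclei the sums were 143, 191, 76.5 and 83.9 against 0.38, 0.566 and 0.998, so the list moved the same way there, and the part of such RNA in the result was not tested.

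By list, against 0.412% of all genes, 1 of 8 layer 5 extratelencephalic genes passed for the primer (Vat1l, higher by 0.91 ± 0.18, 105 against 64.7 CPM), as did 1 of 18 glutamate genes (Gria1, 0.70 ± 0.13, 3183 against 2111) and 1 of 24 guidance genes (Nrp2). Of the 5 nuclear and small RNAs tested, Rn7sk fell by 1.25 on the log2 scale (337 against 889 CPM), and of the 3 cerebellar granule genes Fat2 and Cbln3 were lower.

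**Figure D5:**
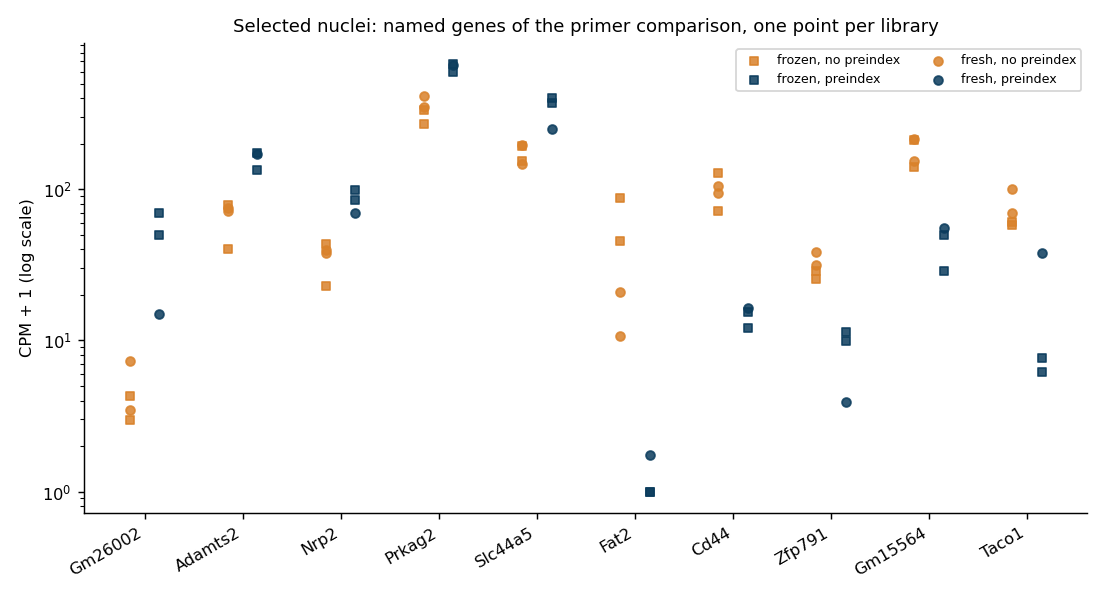
CPM + 1 (log scale) of the 10 named genes of the primer comparison in the selected nuclei, with each point a library, colour for primer and shape for storage. For each gene the 3 libraries with preindex and the 4 without do not overlap, and Fat2 is at 0 in both frozen libraries with preindex.

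Few effects differed between the selected and the other Slc17a7 nuclei. In a fit over both sums of each library with the library as block, the storage effect differed for 3 of 13681 genes (0.0219%) and the primer effect for 4 (0.0292%) by edgeR's quasi-likelihood test. For storage these were Sema5a (difference in log2 fold change 1.97 ± 0.30), Sox2ot (2.10 ± 0.33) and Fign (2.09 ± 0.37), all relatively higher in frozen selected nuclei. Sema5a had 57.9, 58.9, 84.0 and 22.7 CPM in the frozen and 15.4, 26.4 and 8.81 in the fresh selected nuclei, which overlap, while the other nuclei had 172 ± 17.7 (n = 4) and 212 ± 44.1 (n = 3). For the primer these were Slc44a5 (0.96 ± 0.18), the synaptic vesicle protein Syt2 (1.40 ± 0.26), the calcium channel subunit Cacnb4 (-0.82 ± 0.14) and Chsy3 (-0.87 ± 0.17). Cacnb4 had 781 ± 95.4 CPM with preindex and 1151 ± 124 without in the selected nuclei, and 1117 ± 53.0 and 969 ± 65.5 in the others, so the estimates had opposite signs. Its primer effect passed in the other nuclei (0.39, edgeR adjusted p 0.00205) but not in the selected nuclei (-0.46, adjusted p 0.233).

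These counts rested on single libraries. The storage difference had 54 genes without frozen without preindex replicate 1, 27 without fresh without preindex replicate 1, 16 without fresh with preindex replicate 1, 11 without fresh without preindex replicate 2 and 5 without frozen with preindex replicate 2. Without frozen without preindex replicate 2, the calls of Sox2ot (adjusted p = 0.308) and Fign (adjusted p = 0.562, edgeR's quasi-likelihood test) were lost, as were that of Sox2ot without fresh with preindex replicate 1 (0.0502) and that of Fign without fresh without preindex replicate 2 (0.0958). With the rule's minimum at 6 per 10000 all 3 storage calls were lost (edgeR adjusted p 0.0660 for Sema5a, 0.0919 for Sox2ot and 0.184 for Fign), and at 10 those of Sox2ot (0.0776) and Fign (0.334). The primer difference ran from 0 genes (without frozen with preindex replicate 2) and 2 (without frozen without preindex replicate 2) to 79 (without fresh with preindex replicate 1), with 63, 62 and 26 in the order of frozen without preindex replicate 1, fresh without preindex replicate 1 and its replicate 2. Of 10 alternatives, Syt2 was called in 6 and Cacnb4, Chsy3 and Slc44a5 in 5 each. At a minimum of 10 all 4 primer calls were lost (edgeR adjusted p 0.101 to 0.197), and at 6 those of Cacnb4, Chsy3 and Slc44a5 (0.0525 to 0.0814). The calls of these 3 were also lost without frozen without preindex replicate 2 and without either frozen library with preindex (0.0661 to 0.205). The call of Syt2 was lost without frozen with preindex replicate 2 (edgeR adjusted p 0.0661), fresh without preindex replicate 2 (0.0515) and fresh with preindex replicate 1 (0.71).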

How the data were processed

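The authors deposited a table of raw UFI counts per gene and nucleus for each brain library, as whole numbers, and each file was used as deposited. The submitters' processing notes name cutadapt, UMI-tools, STAR, featureCounts and Scanpy and the builds GRCh38, GRCm38 and mm10, without roles or order. By the study's methods, nuclei were told from background by a read minimum set by hand, and every deposited barcode was kept here, more nuclei than the study analysed. The libraries of mixed cell lines in the series were not used here.

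Members and gene lists were chosen with earlier results of these data known. Counts of the selected nuclei were summed per library, with 452594 to 2047938 UFIs a sum, and fitted in R 4.3.3 with edgeR 4.0.16 (TMM, filterByExpr, Benjamini-Hochberg over all genes tested) for storage and primer. DESeq2 1.42.0, upper-quartile scaling, no filter, a replicate block, other minima of the rule, no doublets and left-out libraries were alternatives. In data simulated for the storage fit, 143 of 200 genes changed by 1.5 on the log2 scale were recovered and 8.33% of calls were false, and in those for the primer fit 143 and 5.30%. Shares and gene numbers were compared by exact permutation over libraries (Python 3.11.15, scipy 1.17.1). Descriptive ratios are means over libraries of log2(CPM + 5). Named genes are the members of the lists, the 20 highest and 10 lowest ratios among genes at 50 CPM that moved the same way in 7 of 7 libraries, and for each factor up to 5 genes a direction with the largest change among calls at 20 CPM without overlap, or the 3 smallest p where no gene passed. Genes set aside as differing between nuclei were those past the threshold of the difference. Intervals on shares are exact at 95% and cover counting error only. Doublets were neither called nor removed. Some genes of the lists are counted but not reported by name here. Positions are from RefSeq and the GRCm38 annotation.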

Additional observations from a re-analysis of the deposited data

Results flagged for a closer look

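Within groups of 4 libraries, 3 of 68 groups examined had a library far from the other 3, and chance alone sets about 1 in 20 groups apart. Bcl11b stood at 381 CPM in frozen with preindex replicate 2, against 290 to 305 in the other frozen libraries. Gm24265, a small RNA gene, stood at 43.3 CPM in the same library, against 18.0 to 22.1. Sox2ot stood at 588 CPM in frozen without preindex replicate 2, against 75.6 to 149 in the other libraries without preindex.

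The effect of storage differed between the selected and the other Slc17a7 nuclei for Sema5a (by 1.97 on the log2 scale), Sox2ot (2.10) and Fign (2.09), and the effect of the primer for Syt2 (1.40), Slc44a5 (0.96), Cacnb4 (-0.82) and Chsy3 (-0.87), by the interaction term of edgeR's quasi-likelihood test. Sox2ot is in both paragraphs, since the library that stands apart for it is a frozen one and its difference was 1.49 (adjusted p = 0.308) without that library. Syt2 had a difference of 0.78 (adjusted p = 0.71) without fresh with preindex replicate 1. With the rule's minimum at 6 per 10000 only Syt2 of these 7 genes kept its call, and at 10 only Sema5a.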

How the results depend on the processing

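The layer 5 extratelencephalic median of 1.13 lay between 0.99 and 1.22 in all 6 alternatives, 3 of them added after the data were seen. The share by storage, -1.02 points, turned to 0.107 when Gm27247 was left out of the rule, an alternative added after the data were seen, and ran from -1.47 to -0.517 without single libraries. The share by primer, -1.74 points, was -1.26 at a minimum of 10 per 10000, -1.09 over Slc17a7 nuclei, -1.19 on nuclei thinned to 3000 UFIs, -1.21 without doublets, -0.134 without Gm27247, and -2.12 to -1.26 without single libraries, where 6 libraries are too few for an exact p under 0.05. The thinned rule selected 143 nuclei, 92 of them among the 341. Genes per nucleus by primer, -71.7, was -1120 without thinning and -85.0 to -62.8 without single libraries.

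Calls for storage (0) were 1 with upper-quartile scaling, 82 without a filter, 4 and 2 at minima of 6 and 10, and 0 to 11 without single libraries. Calls for the primer (37) were 51 with DESeq2 (26 shared), 249 without a filter, 19 without doublets and 5 to 92 without single libraries. For the storage difference (3) there were 1 and 8 at minima of 6 and 10, 38 without a filter and 3 to 54 without single libraries. For the primer difference (4) there were 1 and 1, 67, and 0 to 79. Fits without a filter tested 21887 or 32479 genes. The causes of the other changes were not tested.

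Libraries with the same replicate number correlated at 0.02 at most in their deviations, so the numbers are not taken to pair them. With a replicate block, 5 genes passed for storage and 38 for the primer, 29 of them shared with the 37.

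With Gm27247 left out of the rule, the median ratio turned to -0.44 for transcription factors and to -0.0010 for glutamate receptors. Of the other results on single genes and lists, 375 kept their direction and side of the threshold, 59 lost and 17 gained a call and 13 medians moved. Single libraries held 28 to 98 selected nuclei, which limits genes at a few UFIs.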
